A study of Rattus norvegicus with 64 samples.

Results

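The smooth muscle and pericyte genes described here are Acta2, Tagln, Myh11, Notch3, Pdgfrb, Anpep, Pln, Mustn1, Cavin1 and Filip1l, 10 of 32552 gene rows, taken by symbol in the brain of rats. Both regions of 32 rats, hippocampus and cortex, were sequenced as 64 libraries, which fall into 8 groups of 8 with 4 females and 4 males each. The groups were hippocampus of ApoE4 rats given doxorubicin or PBS, hippocampus of ApoE3 rats given doxorubicin or PBS, and the same 4 groups in cortex. ApoE3 and ApoE4 are variants of apolipoprotein E, a carrier of lipids, and doxorubicin is an anthracycline chemotherapy drug. It was given at 2 mg/kg per week for 4 weeks from the age of 5 weeks, and brains were collected when 5 to 6 weeks had passed since dosing ended. The comparisons ask how the drug altered brain expression in each region and genotype. No dose schedule for the PBS rats and no further allele are given in the sources used here. Females, males, genotypes and treatments occupied unbroken runs of rat numbers, so an unlabelled batch that followed those runs and the groups cannot be told apart.

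The members were chosen by their doxorubicin minus PBS values in these data, above all in ApoE3 hippocampus. Their doxorubicin changes are therefore given as a description without a test, and so are the region difference in ApoE3 rats and the genotype difference in hippocampus, which contain the same libraries. The region difference in ApoE4 rats, the genotype difference in cortex, the sexes and the difference of the drug's effect between the sexes were tested. Fits within a treatment contain part of the doxorubicin values that chose the members. A member that passes there is not counted as called, and lost calls are given as limits. Counts of libraries that overlap or lie apart are a description too, since the share of all genes that do so was not counted.

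Vascular smooth muscle cells wrap arteries and arterioles and contract through filaments of smooth muscle actin and myosin. Pericytes sit on capillaries within the basement membrane of the endothelium, where they help to maintain the blood-brain barrier and respond to platelet-derived growth factor from endothelial cells. Notch signals from the endothelium maintain the mural identity of both cell types, and serum response factor drives much of the contractile programme by binding CArG boxes. In the brain, large vessels of the pia and the meninges carry far more smooth muscle than capillaries do.

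Each library held 10836181 to 20397553 counts, and levels are in CPM, which are counts scaled to a common library size over all 64 libraries. Gene lengths were not given, so levels are compared between libraries and not between genes. Every member had counts in every library, with a lowest count of 4 for Pln. Of lists of further genes, 13 contractile genes, 13 pericyte genes, 12 endothelial genes and 12 meningeal fibroblast genes matched a row, and 11, 13, 12 and 12 of them had counts in all 32 hippocampal libraries. Prox1, which marks granule cells of the dentate gyrus, lay between 67.5 and 114 CPM in the hippocampal libraries and between 10.3 and 18.9 CPM in the cortical ones. A row for an ApoE3 donor sequence held 1227 to 2407 CPM in ApoE4 libraries and 1278 to 3137 CPM in ApoE3 libraries, so it does not separate the genotypes.

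Promoter sequences were at hand for 7 of the 10 members, from RefSeq in the GRCr8 assembly, covering the 250 bases before the start site. The promoter of Acta2, the smooth muscle actin, is shown because the gene leads the set, with that of Filip1l, the other member with a match to the CArG pattern, and that of Notch3, which had none. Capitals mark matches to the motifs searched on both strands.
Acta2, chr1:241172504-241172753, minus strand: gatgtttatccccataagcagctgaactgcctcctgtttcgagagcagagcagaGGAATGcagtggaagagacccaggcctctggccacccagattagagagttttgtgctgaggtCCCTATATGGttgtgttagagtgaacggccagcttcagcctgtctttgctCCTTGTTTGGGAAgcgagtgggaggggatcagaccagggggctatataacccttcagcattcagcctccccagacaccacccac
Filip1l, chr11:56646403-56646652, minus strand: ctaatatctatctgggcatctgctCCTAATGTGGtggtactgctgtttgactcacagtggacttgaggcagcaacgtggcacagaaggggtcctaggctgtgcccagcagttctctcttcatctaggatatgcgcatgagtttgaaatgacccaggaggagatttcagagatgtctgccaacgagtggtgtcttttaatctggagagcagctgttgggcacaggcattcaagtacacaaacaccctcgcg
Notch3, chr7:11834586-11834835, minus strand: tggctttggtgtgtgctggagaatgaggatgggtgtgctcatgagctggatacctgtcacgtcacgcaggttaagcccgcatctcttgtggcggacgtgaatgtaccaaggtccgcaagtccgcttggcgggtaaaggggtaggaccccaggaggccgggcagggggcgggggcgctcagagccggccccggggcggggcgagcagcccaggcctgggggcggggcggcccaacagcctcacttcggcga

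A CArG box has CC, then 6 bases that are each A or T, then GG. None of the 7 promoters held a full CArG box, which 1.497% of 33465 promoters of this length held. Acta2 held 2 CArG-like elements, in which 1 of the inner 6 bases departs from A or T, at positions -134 to -125 and -84 to -75 from the start site. Filip1l held 1, at -226 to -217, and 6.84% of all promoters held at least 1 such element. The motif TGGGAA, bound by the Notch effector Rbpj, was in the promoters of Acta2, where it overlaps the second CArG-like element at -77 to -72, of Anpep and of Pln, and in 22.1% of all promoters. The motif CATTCC, bound by Tead factors, was in that of Acta2 and in 12.1% of all promoters. A match is a description of these letters, and binding was not measured.

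Between 1 and 5 hippocampal libraries of each group stood apart in Acta2. The level ran from 7.65 to 80.9 CPM over 32 libraries, a ratio of 10.6, against 9.76 to 49.1 CPM in cortex. Sorted by Acta2, the hippocampal libraries had their widest gap between 17.5 and 26.4 CPM, with 9 libraries above it. This gap was 0.59 on the log2 scale, against 0.39 for the next widest. Of these 9, 1 was from the ApoE4 doxorubicin group, 2 from ApoE4 PBS, 1 from ApoE3 doxorubicin and 5 from ApoE3 PBS.

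**Figure D1:**
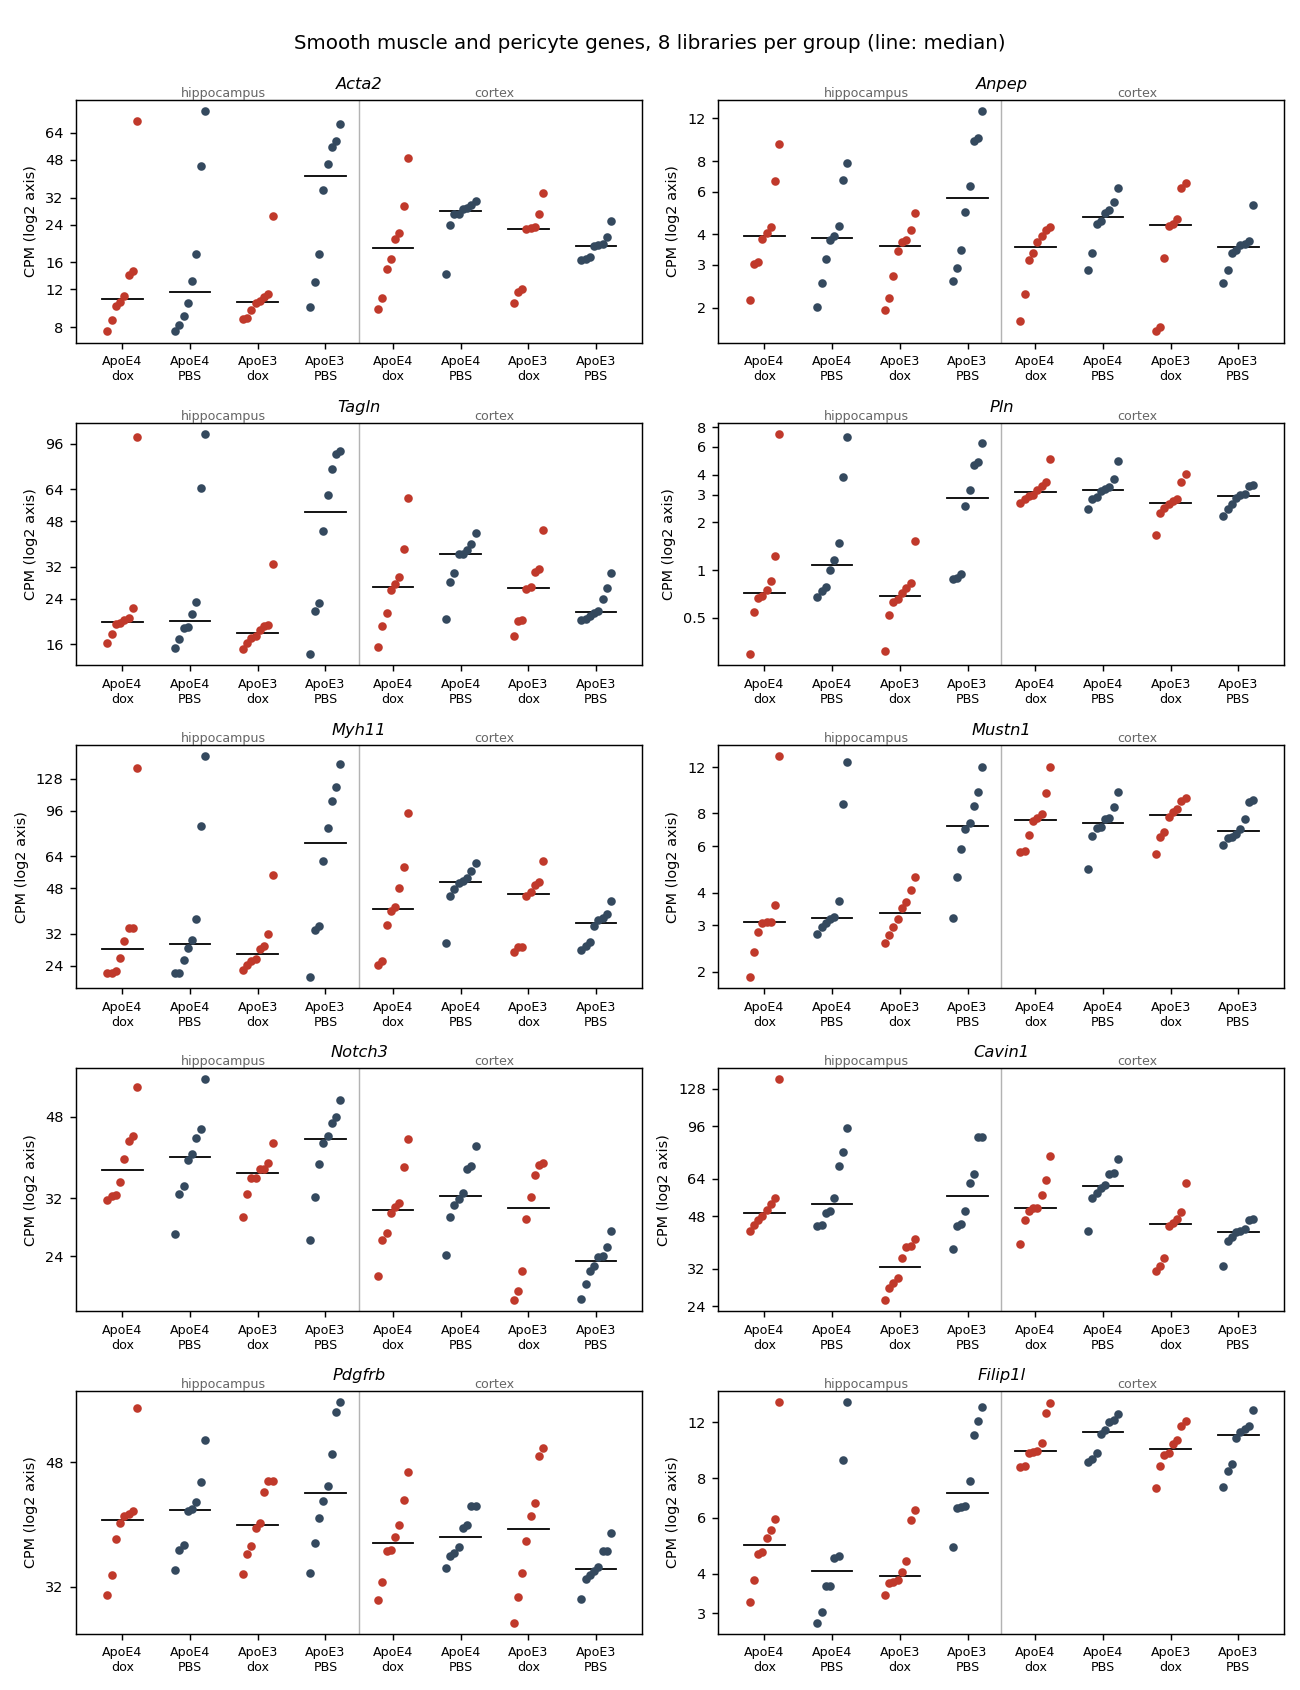
Level of each member in CPM on a log2 axis, in 8 libraries per group, with hippocampal groups left of cortical groups, doxorubicin in red and PBS in dark blue, and a line at the median. In hippocampus 1 to 5 libraries of each group stand far above the others for Acta2, Tagln, Myh11 and Pln, and 5 of the 9 with Acta2 above 26 CPM belong to the ApoE3 PBS group.

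Acta2 in hippocampus had a lowest, median and highest level of 7.65, 10.8 and 72.7 CPM in ApoE4 doxorubicin rats, against 7.68, 11.7 and 80.9 CPM in ApoE4 PBS rats. In ApoE3 hippocampus it had 8.75, 10.5 and 26.4 CPM with doxorubicin, against 9.97, 40.2 and 70.5 CPM with PBS. The medians of the 4 hippocampal groups thus lay close together except for that of ApoE3 PBS, and all groups overlapped. All 8 ApoE3 doxorubicin libraries lay below the ApoE3 PBS median, and 5 of 8 PBS libraries lay above every doxorubicin library. In whole tissue such a difference can come from fewer smooth muscle cells in the piece taken, those of meningeal vessels included, or from less RNA per cell. These cannot be told apart. The log2 change of doxorubicin minus PBS was -0.45 (SE 0.57) in ApoE4 hippocampus and -1.66 (SE 0.37) in ApoE3 hippocampus. In cortex it was -0.30 (SE 0.24) in ApoE4 and 0.05 (SE 0.16) in ApoE3 rats.

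Tagln, an actin-binding protein of smooth muscle also called transgelin, and Myh11, the smooth muscle myosin heavy chain, followed the same libraries. Tagln in hippocampus averaged 29.6 ± 29.3 CPM in ApoE4 doxorubicin and 35.4 ± 32.4 CPM in ApoE4 PBS rats (SD, n = 8 each). In ApoE3 hippocampus it averaged 19.3 ± 5.54 CPM with doxorubicin and 52.3 ± 30.7 CPM with PBS (SD, n = 8 each). The SD was close to the mean in both ApoE4 groups, and the doxorubicin group of ApoE3 rats was the least variable of the 4. Myh11 averaged 30.1 ± 10.2 CPM in ApoE3 doxorubicin hippocampus and 75.3 ± 45.3 CPM in ApoE3 PBS hippocampus (SD, n = 8 each). The log2 changes in ApoE3 hippocampus were -1.44 (SE 0.33) for Tagln and -1.33 (SE 0.33) for Myh11. Each of the 9 hippocampal libraries highest in Acta2 was also among the 9 highest in Tagln, in Myh11 and in Pln.

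Pln encodes phospholamban, which restrains the calcium pump of the sarcoplasmic reticulum in cardiac and smooth muscle. It had the lowest counts of the set, from 4 to 122 in hippocampus. The lowest, median and highest levels were 0.31, 0.687 and 1.53 CPM in ApoE3 doxorubicin hippocampus, against 0.881, 2.87 and 6.37 CPM in ApoE3 PBS hippocampus. Its log2 change of -2.01 (SE 0.44) was the largest in size of the 10 members in that comparison. In ApoE4 hippocampus its level was 0.294, 0.718 and 7.27 CPM with doxorubicin, against 0.674, 1.08 and 6.95 CPM with PBS. Atp2a2, the pump that phospholamban restrains, had a log2 change of 0.08 (SE 0.04) in ApoE3 hippocampus, Itpr1 of 0.13 (SE 0.08) and Ryr2 of 0.12 (SE 0.07). These are values of whole tissue in which cell types were not separated, so they do not give the level of the pump in smooth muscle.

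Notch3 and Pdgfrb, the receptors for Notch ligands and for platelet-derived growth factor on mural cells, varied far less than the contractile genes. Notch3 had a lowest, median and highest level of 29.2, 36.2 and 42.1 CPM in ApoE3 doxorubicin hippocampus, against 26.0, 42.9 and 52.2 CPM in ApoE3 PBS hippocampus. Pdgfrb had 33.3, 39.1 and 45.2 CPM with doxorubicin, against 33.4, 43.4 and 58.4 CPM with PBS. The groups overlapped for both receptors. For Notch3 all 8 doxorubicin libraries lay below the PBS median and 5 of 8 PBS libraries above every doxorubicin library, and for Pdgfrb these numbers were 5 of 8 and 3 of 8. Each had a log2 change of -0.19 (SE 0.11) there, and in ApoE4 hippocampus the changes were -0.03 (SE 0.14) for Notch3 and -0.04 (SE 0.11) for Pdgfrb. The highest hippocampal library exceeded the lowest 2.22-fold for Notch3 and 1.87-fold for Pdgfrb, compared with 24.8-fold for Pln.

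Anpep, the cell surface aminopeptidase N that marks brain pericytes and also fibroblasts, averaged 3.36 ± 1.01 CPM in ApoE3 doxorubicin and 6.59 ± 3.83 CPM in ApoE3 PBS hippocampus (SD, n = 8 each). Its log2 changes were 0.09 (SE 0.30) in ApoE4 hippocampus, -0.96 (SE 0.31) in ApoE3 hippocampus, -0.47 (SE 0.18) in ApoE4 cortex and 0.16 (SE 0.21) in ApoE3 cortex. In ApoE4 cortex, where no other member was as low, all 8 doxorubicin libraries lay below the PBS median and 6 of 8 PBS libraries lay above every doxorubicin library. The share of all genes with as little overlap was not counted there.

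Cavin1 coats caveolae, the small membrane pits of smooth muscle and endothelium. Mustn1 encodes a small nuclear protein known from the musculoskeletal system, and Filip1l encodes a protein related to a filamin-interacting protein. Among the 10 members, these were the ones whose ApoE3 hippocampal groups overlapped least, since 7 of 8 PBS libraries lay above every doxorubicin library for each. The members were chosen by such values, and the share of all genes that overlap as little was not counted. Cavin1 had a lowest, median and highest level of 25.2, 32.4 and 40.2 CPM with doxorubicin, against 37.4, 55.9 and 88.6 CPM with PBS. Mustn1 had 2.56, 3.33 and 4.59 CPM, against 3.20, 7.19 and 12.0 CPM with PBS. Filip1l had 3.42, 3.92 and 6.35 CPM, against 4.86, 7.17 and 13.4 CPM with PBS. The log2 changes were -0.88 (SE 0.17) for Cavin1, -1.09 (SE 0.22) for Mustn1 and -0.95 (SE 0.20) for Filip1l. In the ApoE4 hippocampus they were -0.05 (SE 0.22), -0.36 (SE 0.40) and 0.03 (SE 0.35) in the same order.

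**Figure D2:**
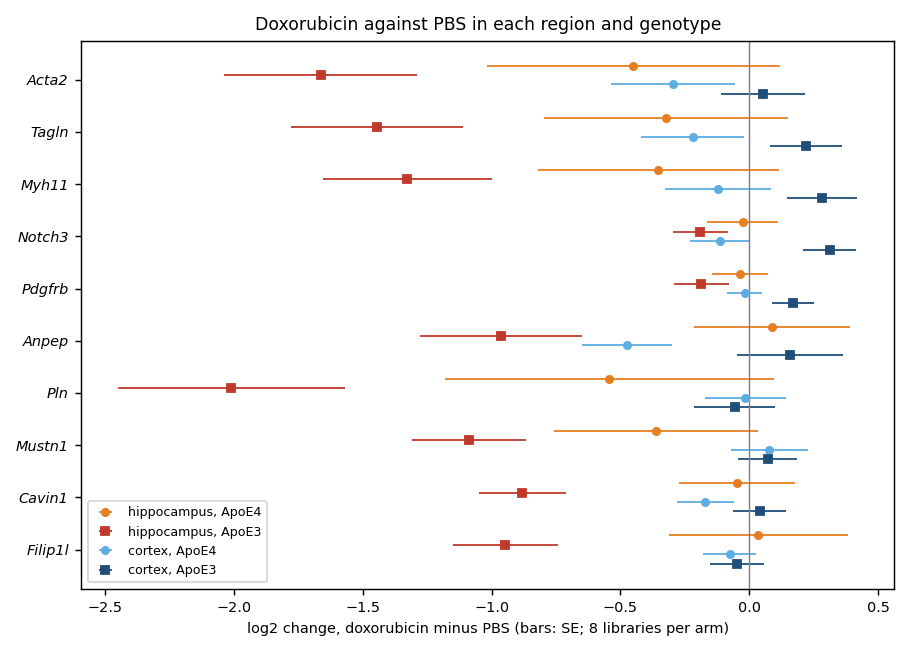
Log2 change of doxorubicin minus PBS for each member (points, with SE bars; 8 libraries per arm), in hippocampus and cortex of ApoE4 and ApoE3 rats. All 10 points of ApoE3 hippocampus (red squares) lie below 0, from -2.01 for Pln to -0.19 for both receptors, and in the other comparisons no member reaches -0.6.

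Over all 10 members the median log2 change was -0.19 in ApoE4 hippocampus and -1.03 in ApoE3 hippocampus, and in cortex -0.12 in ApoE4 and 0.11 in ApoE3 rats. The median over all tested genes was within 0.01 of 0 in each. By edgeR's quasi-likelihood test no gene of the 14899 tested passed in ApoE3 hippocampus (0.0% called), where 1530 genes had an unadjusted p under 0.05. DESeq2 on the same counts called 152 genes, 118 of them lower. In the authors' deposited table, 118 of 14987 genes were called lower there (0.787%), among them 7 of the 10 members, and the members' share is part of how they were chosen. The authors' deposited table called 0 members lower in the other 3 comparisons, where it called 0.0% of genes lower in ApoE4 hippocampus, 0.0469% in ApoE4 cortex and 0.00672% in ApoE3 cortex.

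The drug's effect in ApoE4 hippocampus minus that in ApoE3 hippocampus was positive for 10 of 10 members, from 0.15 (SE 0.16) for Pdgfrb to 1.54 (SE 0.81) for Pln. The hippocampal effect minus the cortical effect in ApoE3 rats was negative for 10 of 10, from -0.34 (SE 0.15) for Pdgfrb to -1.73 (SE 0.41) for Pln. These differences share the ApoE3 hippocampal libraries and are given without a test.

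Single libraries set much of the ApoE4 hippocampal values. Leaving out the ApoE4 doxorubicin library of rat 10 took the log2 change of Acta2 to -1.11, and leaving out the ApoE4 PBS library of rat 3 took it to 0.18. For Pln the same steps gave -1.47 and 0.02, and for Tagln -0.86 and 0.16. The authors' deposited table gives -1.12 for Acta2 and -1.48 for Pln in ApoE4 hippocampus, close to the values without rat 10. For Tagln it gives -0.36 and for Myh11 -0.34, close to the values with all libraries, which were -0.32 and -0.35. In all, 9 of 10 members took both signs in ApoE4 hippocampus as each of the 16 libraries was left out, and 0 of 10 did in ApoE3 hippocampus, where Acta2 stayed between -1.91 and -1.47. The members were chosen above all by their values in ApoE3 hippocampus, so the steady signs there are not separate support.

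Other genes of the same cells were counted from the lists. In ApoE3 hippocampus 10 of 11 tested contractile genes were lower with doxorubicin, with a median log2 change of -0.70, led by Tpm2 (-0.97, SE 0.24), Myl9 (-1.01, SE 0.27), Lmod1 (-0.79, SE 0.22) and Des (-1.23, SE 0.36). Of 13 pericyte genes 9 were lower, with a median of -0.07. Vtn (-1.03, SE 0.28), Tbx18 (-1.08, SE 0.36) and Ebf1 (-0.48, SE 0.16) were the lowest of them relative to error, while Atp13a5 had -0.13 (SE 0.08). Ligands, receptors and targets of the growth factor and Notch pathways had a median of -0.03 over 16 genes, with Jag1, a Notch ligand, at -0.37 (SE 0.14) and Heyl, a Notch target, at -0.24 (SE 0.07). Caveolar genes had a median of -0.29 with 6 of 6 lower, and genes around serum response factor a median of -0.12 with 5 of 8 lower. No gene of these lists passed edgeR's test, where 0.0% of all genes did.

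Markers of other cell types had values in the same direction, and their part in the members' values was not tested. The fits in the next paragraph only describe how the values moved with the meningeal score. All 12 tested meningeal fibroblast genes were lower with doxorubicin in ApoE3 hippocampus, with a median log2 change of -1.72, and none was at 0 in every library. Their score, the mean log2 CPM of the list, ran from 2.41 to 4.04 in ApoE3 doxorubicin and from 2.74 to 5.71 in ApoE3 PBS hippocampus. All 12 endothelial genes were lower as well, with a median of -0.28, and the score ran from 4.27 to 4.61 with doxorubicin and from 4.36 to 5.16 with PBS. All 4 markers of macrophages at brain borders were lower, with a median of -1.04. Choroid plexus genes went the other way, with 7 of 7 tested genes higher and a median of 1.86, although their score spanned -1.0 to 7.13 in doxorubicin and -0.59 to 6.14 in PBS libraries.

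With the meningeal score as a covariate, a fit added after the values were seen, the ApoE3 hippocampal log2 change was -0.24 (SE 0.16) for Acta2, -0.13 for Tagln, -0.04 for Myh11, -0.03 for Anpep and -0.44 (SE 0.26) for Pln. For Notch3 and Pdgfrb it was 0.08 and 0.11, above 0. It was -0.31 (SE 0.08) for Cavin1, -0.46 (SE 0.19) for Mustn1 and -0.40 (SE 0.18) for Filip1l. Without the 6 hippocampal libraries whose meningeal score was above 5, of which 1 was ApoE4 doxorubicin, 2 were ApoE4 PBS and 3 were ApoE3 PBS, the ApoE3 change was -0.95 (SE 0.36) for Acta2, -0.72 for Tagln, -0.61 for Myh11, -1.09 (SE 0.40) for Pln and -0.24 for Anpep. In that set it was -0.56 (SE 0.13) for Cavin1, -0.71 (SE 0.20) for Mustn1 and -0.54 (SE 0.17) for Filip1l, and -0.02 (SE 0.19) for Acta2 in ApoE4 rats.

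**Figure D3:**
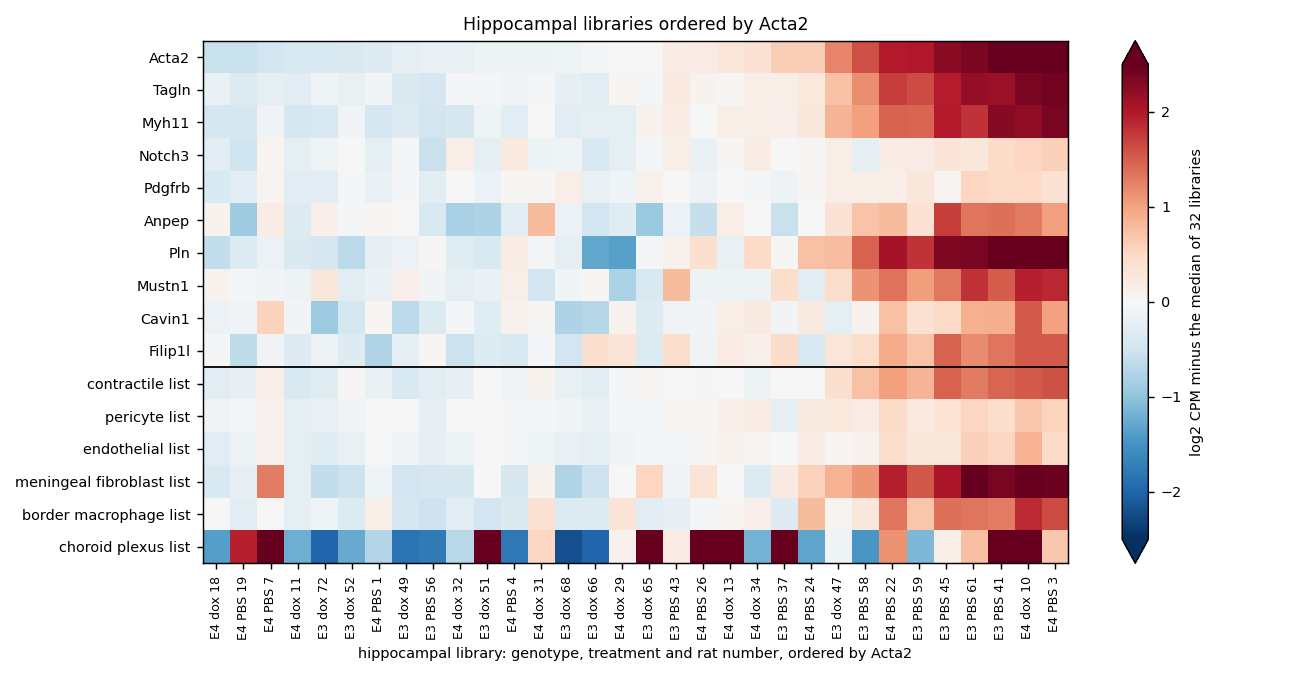
The 32 hippocampal libraries in columns, ordered by Acta2 and labelled by genotype, treatment and rat number; rows are the members and, under the line, the scores of 6 gene lists; colour is log2 CPM minus the median of the 32 libraries. The 9 rightmost libraries are high in contractile genes, and 8 of them are among the 9 highest for the meningeal and the endothelial lists, whereas 2 are for the choroid plexus list.

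The overlap of the highest libraries extended to other cell types. Of the 9 hippocampal libraries highest in Acta2, 8 were among the 9 highest for Col1a1, a fibroblast collagen, for Cdh5, the cadherin of endothelial junctions, for Pdgfrb, Anpep and Mustn1, and for the meningeal, endothelial and pericyte lists. For Notch3, Cavin1 and Filip1l the number was 7, for the choroid plexus list 2 and for the calcium store list 1.

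Because these libraries lie above the gap, correlations in hippocampus were taken within the 23 libraries below it, as deviations from group means, and within the 9 above it. The 9 were chosen by Acta2 itself, come from several groups and were not centred. Differences between groups, that of ApoE3 PBS and doxorubicin included, are thus part of their r and p. Over 19 relations p-values were adjusted by Benjamini-Hochberg. Acta2 against Cdh5 had r = 0.66 below the gap (permutation p = 0.00478, adjusted 0.0114; rho = 0.58, permutation p = 0.00827, adjusted 0.0192), and r = 0.51 without the 2 libraries farthest in Acta2. Above the gap it had r = 0.87 (exact permutation p = 0.00264, adjusted 0.00836; rho = 0.85, exact permutation p = 0.00607), and 0.69 without the 2 farthest. Acta2 against Col1a1 had r = 0.29 below the gap (permutation p = 0.288, adjusted 0.342; rho = 0.39, permutation p = 0.0986), and 0.22 without the 2 farthest. Above the gap it had r = 0.94 (exact permutation p = 0.000234, adjusted 0.00111; rho = 0.95, exact permutation p = 0.000353), and 0.77 without the 2 farthest. Acta2 thus followed the endothelial gene in both sets. Its relation to the collagen passed among the 9 high libraries, uncentred, and missed the threshold among the other 23, centred. The 2 sets differ in that and in size, so their r values are not set against each other.

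In cortex the widest gap, between 33.6 and 49.1 CPM of Acta2, set apart only 1 library, of the ApoE4 doxorubicin group. It was 0.55 on the log2 scale, against 0.59 for the hippocampal gap, so the gaps were of similar size. Over the 32 cortical libraries the deviations of Acta2 had r = 0.87 with Col1a1 (permutation p = 1e-05, the smallest that 100000 permutations can give, adjusted 9.5e-05; rho = 0.76, permutation p = 1e-05) and r = 0.81 without the 2 farthest. With Cdh5 they had r = 0.87 (permutation p = 1e-05, adjusted 9.5e-05; rho = 0.79, permutation p = 1e-05) and r = 0.82 without the 2 farthest. Acta2 against Pdgfrb had r = 0.70 (permutation p = 0.00033, adjusted 0.00125; rho = 0.63, permutation p = 0.00099) and r = 0.72 without the 2 farthest. Within deviations from the means of group and sex, these 3 values were 0.87, 0.84 and 0.61.

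Between the regions of a rat, no relation passed after adjustment for Acta2 or Pdgfrb. Below the gap, hippocampal against cortical Acta2 had r = -0.10 over 23 rats (permutation p = 0.643, adjusted 0.719; rho = -0.02, permutation p = 0.932), and -0.07 without the 2 farthest. Among the 9 rats above the gap it had r = 0.70 (exact permutation p = 0.0372, adjusted 0.0589; rho = 0.60, exact permutation p = 0.0968), which rested on the 2 farthest rats, since r was 0.22 without them. Pdgfrb had r = 0.06 over the 23 rats (permutation p = 0.804, adjusted 0.848; rho = 0.08, permutation p = 0.745), and 0.30 without the 2 farthest.

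The genes most like Acta2 in hippocampus, by the Pearson r of deviations from group means over 32 libraries, were Myh11, Tagln, Eln, Vwf and Tpm2, with r of 0.95 to 0.98. Over the 23 libraries below the gap the r of these genes with Acta2 was 0.81, 0.78, 0.46, 0.76 and 0.47 in the same order. In cortex they were Tagln, Myl9, Myh11, Bgn and Des, with r of 0.92 to 0.95. Myh11 and Tagln appeared in both regions, with a further contractile filament gene, Tpm2 or Myl9, in each. The genes most like Pdgfrb were Olfml2a, Rcsd1, Pdzrn3, Adgra2 and C2 in hippocampus and Adgrf5, Tns2, Lamb2, Tln1 and Lamc3 in cortex. Pln stood 7th in likeness to Acta2 among 12998 genes in hippocampus (r = 0.94) and 542nd among 12986 in cortex (r = 0.54). These r values describe libraries that share depth and dissection and carry no test.

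In ApoE4 rats Pln, Filip1l and Mustn1 were lower in hippocampus than in cortex. Pln averaged 1.81 ± 2.22 CPM in hippocampus and 3.33 ± 0.735 CPM in cortex (SD, n = 16 each), and was lower in hippocampus in 13 of 16 rats. The log2 difference within rats, averaged over treatments, was -1.36 (SE 0.28; edgeR adjusted p = 0.000313). Filip1l averaged 5.75 ± 3.51 CPM in hippocampus and 10.7 ± 1.64 CPM in cortex (SD, n = 16 each), with a difference of -1.04 (SE 0.17; edgeR adjusted p = 1.54e-05), and was lower in hippocampus in 14 of 16 rats. Mustn1 had -0.94 (SE 0.21; edgeR adjusted p = 0.000526). Fits within each treatment, added after the values were seen, are given as a description without a test. The difference was -1.68 with doxorubicin and -1.03 with PBS for Pln, -0.95 and -1.12 for Filip1l, and -1.14 and -0.74 for Mustn1.

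In ApoE3 rats these 3 genes were far below cortex in hippocampus of rats given doxorubicin and closer to it in rats given PBS. Pln averaged 0.745 ± 0.356 CPM in hippocampus and 2.78 ± 0.743 CPM in cortex of rats given doxorubicin, and 3.03 ± 2.09 CPM in hippocampus and 2.87 ± 0.441 CPM in cortex of rats given PBS (SD, n = 8 each). The hippocampus minus cortex difference was thus -1.90 (SE 0.24) with doxorubicin and -0.18 (SE 0.29) with PBS. For Mustn1 it was -1.18 (SE 0.15) with doxorubicin and -0.09 (SE 0.16) with PBS, and for Filip1l -1.20 (SE 0.13) with doxorubicin and -0.34 (SE 0.14) with PBS. All 8 rats given doxorubicin had less Pln, Mustn1 and Filip1l in hippocampus than in cortex, against 4, 4 and 6 of 8 rats given PBS. For Acta2, Tagln, Myh11, Anpep and Cavin1 the ApoE3 difference took both signs, below 0 with doxorubicin and above 0 with PBS.

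Notch3 was higher in hippocampus. It averaged 39.4 ± 8.45 CPM in hippocampus and 32.0 ± 5.97 CPM in cortex of ApoE4 rats (SD, n = 16 each), with a log2 difference of 0.28 (SE 0.10; edgeR adjusted p = 0.0157), and was higher in hippocampus in 12 of 16 rats. The call was lost within each treatment, at 0.33 with doxorubicin and 0.23 with PBS (edgeR adjusted p = 0.0695 and 0.0628), and without the libraries of high meningeal score, at 0.18 (edgeR adjusted p = 0.0917). In ApoE3 rats Notch3 had 0.31 (SE 0.13) with doxorubicin and 0.78 (SE 0.12) with PBS, and was higher in hippocampus in 5 and 8 of 8 rats. Pdgfrb had 0.08 (SE 0.07) in ApoE4 rats (edgeR adjusted p = 0.328), and in ApoE3 rats 0.03 (SE 0.10) with doxorubicin and 0.36 (SE 0.09) with PBS.

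In all, 4 members passed in ApoE4 rats, 1 of them higher and 3 lower in hippocampus, where 62.3% of all genes passed, 30.8% higher and 31.6% lower. The members' share is thus under the background. Acta2 had a difference of -0.55 (SE 0.27) in ApoE4 rats (edgeR adjusted p = 0.0874), and passed at -0.42 with the meningeal score as covariate (edgeR adjusted p = 0.00777). Without the rats of high hippocampal meningeal score, the differences were -1.03 for Acta2, -0.64 for Tagln and -0.73 for Myh11. That cut was made after the values were seen and takes out hippocampal libraries that were high in Acta2. It lowers the hippocampal side by its making, so these values are a description without a test.

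Of the Notch pathway, Hey1 (1.12 in ApoE4 and 1.05 in ApoE3 rats), Dll1 (0.84 and 1.08), Nrarp (0.71 and 0.67) and Notch2 (0.74 and 0.98) were higher in hippocampus and passed in both genotypes. Hey1 and Nrarp are targets, Dll1 a ligand and Notch2 a receptor of the pathway, and neurons and glia also use them. Over the 16 genes of that list, 8 were called higher and 4 lower in ApoE4 rats, and 9 higher and 3 lower in ApoE3 rats, or 12 of 16 in each. Of all genes 62.3% passed in ApoE4 and 62.1% in ApoE3 rats, the second made up of 32.0% higher and 30.1% lower. Of 13 pericyte genes, 1 was higher and 6 lower in ApoE4 rats, and 1 higher and 3 lower in ApoE3 rats, with Cspg4 the higher one (0.19 and 0.37). Thus 7 and 4 of 13 passed, and the share lay under the background in both genotypes. Abcc9, a potassium channel subunit (-0.32 and -0.21), and Atp13a5 (-0.33 and -0.21) were lower in both genotypes. Of 12 contractile genes, 1 was higher and 1 lower in ApoE4 rats and 2 higher in ApoE3 rats. Cavin3 of the caveolar list was lower in hippocampus (-0.93 and -1.07), while Cavin1 itself had 0.00 (SE 0.11) in ApoE4 rats.

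**Figure D4:**
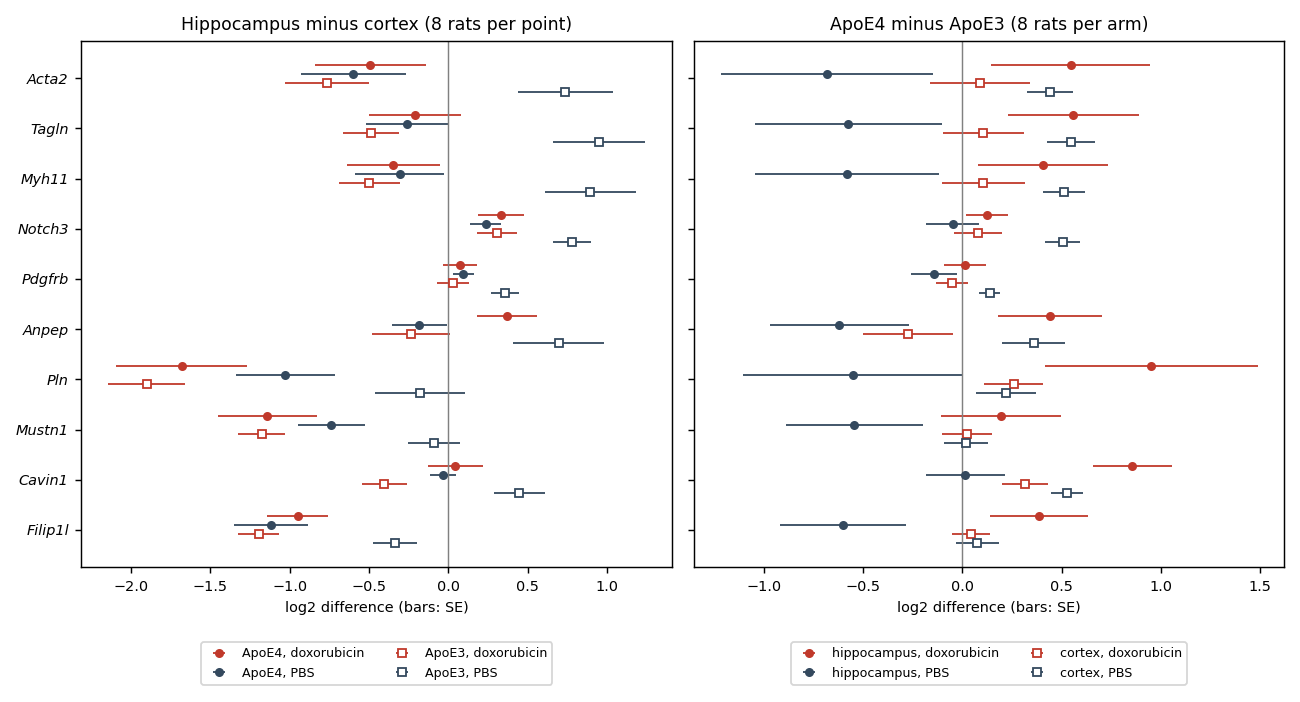
Log2 differences with SE bars for each member, within each treatment (doxorubicin in red, PBS in dark blue); left, hippocampus minus cortex in ApoE4 (filled) and ApoE3 (open) rats, 8 rats per point; right, ApoE4 minus ApoE3 in hippocampus (filled) and cortex (open), 8 rats per arm. On the left the ApoE3 PBS points lie to the right of the ApoE3 doxorubicin points for all 10 members, with Pln at -0.18 against -1.90. On the right the hippocampal PBS points lie below 0 for all members but Cavin1 (0.01), and the hippocampal doxorubicin points above 0.

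Between the genotypes, Cavin1 in cortex averaged 57.4 ± 10.6 CPM in ApoE4 and 42.7 ± 7.64 CPM in ApoE3 rats (SD, n = 16 each). The log2 difference of ApoE4 minus ApoE3 was 0.42 (SE 0.08) and passed (edgeR adjusted p = 0.000237), with 14 of 16 ApoE4 libraries above the ApoE3 median. With the meningeal score as covariate it was 0.25 and passed (edgeR adjusted p = 0.00012). The call was lost in rats given doxorubicin, at 0.31 (edgeR adjusted p = 0.0744), and the difference was 0.53 (SE 0.08) in rats given PBS. In hippocampus Cavin1 had a lowest, median and highest level of 42.9, 49.2 and 138 CPM in ApoE4 doxorubicin and 25.2, 32.4 and 40.2 CPM in ApoE3 doxorubicin rats. With PBS it had 44.6, 52.6 and 94.7 CPM in ApoE4 and 37.4, 55.9 and 88.6 CPM in ApoE3 rats. The genotypes did not overlap with doxorubicin and overlapped over most of the range with PBS, and the share of all genes doing so was not counted. The log2 difference in hippocampus was 0.86 (SE 0.20) with doxorubicin and 0.01 (SE 0.20) with PBS.

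Notch3 also passed in cortex, where it averaged 32.0 ± 5.97 CPM in ApoE4 and 26.3 ± 6.45 CPM in ApoE3 rats (SD, n = 16 each). The log2 difference was 0.29 (SE 0.09; edgeR adjusted p = 0.0137), with 15 of 16 ApoE4 libraries above the ApoE3 median. The call was lost with the meningeal score as covariate, at 0.16 (edgeR adjusted p = 0.107), and in rats given doxorubicin, at 0.08 (edgeR adjusted p = 0.734), whereas it was 0.51 (SE 0.09) in rats given PBS. Tagln (0.32, edgeR adjusted p = 0.0669), Myh11 (0.30, edgeR adjusted p = 0.0925) and Acta2 (0.26, edgeR adjusted p = 0.239) did not pass over both treatments. As a description without a test, they had 0.55, 0.51 and 0.44 in rats given PBS, against 0.11, 0.11 and 0.09 in rats given doxorubicin. The values of the 2 treatments were not tested against each other. In cortex 2 of 10 members passed against 29.7% of all genes, with 14.7% higher and 15.0% lower. The median was 0.25 with 10 of 10 members above 0, but with the meningeal score as covariate 5 were above 0 and 5 below, among them Acta2 at -0.12, Anpep at -0.15 and Mustn1 at -0.14.

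In hippocampus the genotype difference of the members took opposite signs in the 2 treatments, apart from Cavin1. All 10 were above 0 in rats given doxorubicin, from 0.01 (SE 0.10) for Pdgfrb to 0.95 (SE 0.53) for Pln, and 9 of 10 were below 0 in rats given PBS, down to -0.68 (SE 0.54) for Acta2. Of the other genes of these cells, Mcam of 13 pericyte genes (0.28) and Heyl (0.20) and Jag2 (0.11) of 16 growth factor and Notch genes were called higher in ApoE4 over both treatments. Of all genes 8.17% were called there, with 4.26% higher and 3.91% lower.

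Other genes of the vessel wall were counted in cortex, where 29.7% of all genes passed and 14.7% were higher in ApoE4. Of 13 pericyte genes 4 passed as higher in ApoE4, namely Mcam (0.30), Tbx18 (0.74), Rgs5 (0.31) and Cspg4 (0.17), and of 12 contractile genes Synpo2 (0.60), Cald1 (0.29) and Mylk (0.25) did. Of 12 endothelial genes 3 passed as higher, Tek (0.33), Kdr (0.36) and Cdh5 (0.24). Of 6 tested caveolar genes, 3 were above 0 and 3 below, and Cav1 (0.25), the core protein of caveolae, was called higher and Cavin3 (-0.17) lower. Of 12 meningeal fibroblast genes 6 passed as higher, with a list median of 0.41, and 4 of 4 border macrophage genes did, with a median of 0.92. The meningeal score ran from 2.63 to 4.86 in ApoE4 doxorubicin and 3.00 to 4.45 in ApoE4 PBS cortex, against 2.91 to 4.56 in ApoE3 doxorubicin and 2.92 to 3.75 in ApoE3 PBS cortex. The part of these lists in the genotype differences was not tested, and the covariate fits given above do not test it.

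Between the sexes 0 of 10 members passed in either region by edgeR or DESeq2. At an unadjusted p under 0.05 in edgeR there were 1 of 10 members in hippocampus and 3 of 10 in cortex. Over all genes these were 1463 of 15416 in hippocampus and 2302 of 15315 in cortex. Of all genes 0.11% passed in hippocampus (0.0649% higher and 0.0454% lower in females) and 0.705% in cortex (0.268% higher and 0.437% lower). All 10 members were lower in females in hippocampus, with a median of -0.35, from -0.63 (SE 0.41) for Pln to -0.02 (SE 0.08) for Pdgfrb, but 6 of 10 were above 0 without the libraries of high meningeal score, with Acta2 at 0.23 and Pln at 0.29, and 4 of 10 with the meningeal score as covariate, with Acta2 at 0.08. All 10 were higher in females in cortex, with a median of 0.18, but 5 of 10 were below 0 with the covariate, down to -0.08 for Myh11. Pdgfrb in cortex averaged 39.5 ± 5.53 CPM in females and 34.8 ± 3.49 CPM in males (SD, n = 16 each; log2 difference 0.18, SE 0.06, edgeR adjusted p = 0.116). The meningeal list had medians of -0.62 in hippocampus and 0.32 in cortex, in the same directions, with 0 of 12 genes passing in each.

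By edgeR the drug's effect differed by sex for the receptors in ApoE3 cortex, a comparison added after the values were seen. The members were chosen by doxorubicin minus PBS values in these data, and the p-values below take no account of that choice. Notch3 had levels of 32.2, 36.0, 37.8 and 38.2 CPM in the 4 females given doxorubicin, against 22.3, 22.9, 24.1 and 25.2 CPM in the 4 females given PBS. In males it had 19.4, 20.2, 22.3 and 28.8 CPM with doxorubicin, against 19.4, 21.0, 24.0 and 27.2 CPM with PBS. The female groups of 4 did not overlap and the male groups did, and the share of all genes doing so was not counted. Pdgfrb had 40.2, 42.0, 49.0 and 50.2 CPM in females given doxorubicin, against 33.2, 33.7, 34.1 and 35.9 CPM in females given PBS. In males Pdgfrb had 28.5, 30.9, 33.4 and 37.1 CPM with doxorubicin, against 30.7, 32.8, 36.0 and 38.1 CPM with PBS. The female effect minus the male effect was 0.62 (SE 0.16) for Notch3 and 0.49 (SE 0.13) for Pdgfrb on the log2 scale (edgeR adjusted p = 0.0398 and 0.0401), and 0.758% of all genes were called in that direction, 1.81% in the other and 2.57% in either.

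**Figure D5:**
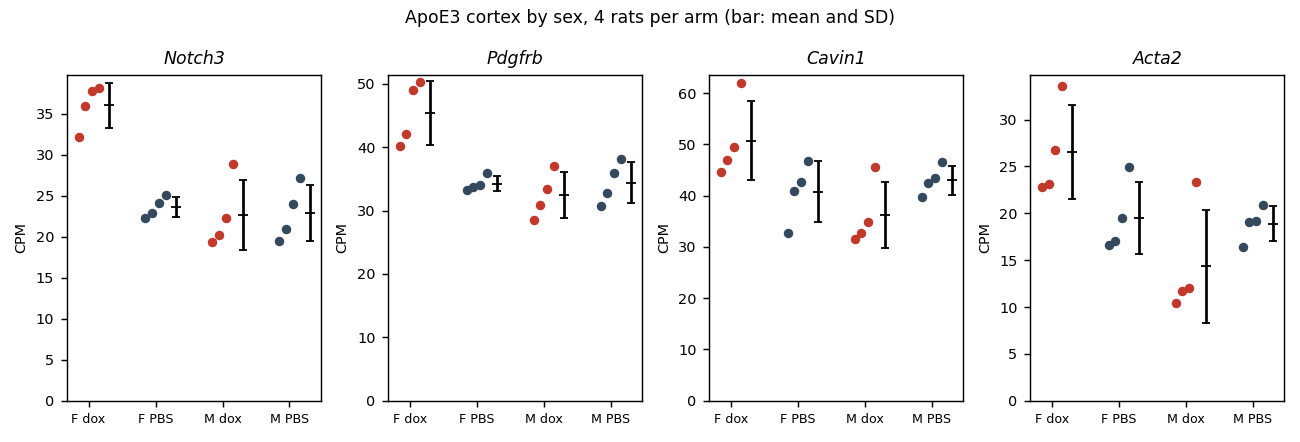
Levels in CPM of Notch3, Pdgfrb, Cavin1 and Acta2 in ApoE3 cortex, with females left of males and doxorubicin (red) left of PBS (dark blue); points are 4 rats per arm, and bars give mean and SD. All 4 females given doxorubicin lie above all 4 females given PBS for Notch3 and Pdgfrb, while the male arms overlap.

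The other members had a positive difference between the sexes too, from 0.04 (SE 0.21) for Filip1l to 0.81 (SE 0.27) for Acta2 (edgeR adjusted p = 0.946 and 0.101), and Cavin1 had 0.55 (SE 0.16; edgeR adjusted p = 0.0688). Of the 16 growth factor and Notch genes, Notch1 passed (0.49, SE 0.11, edgeR adjusted p = 0.0213). Pdgfb, the endothelial ligand of Pdgfrb, had 0.51 (SE 0.15) and Hey2, a Notch target, had 0.69 (SE 0.21), and neither passed. The 12 endothelial genes had a median of 0.38 and the 12 meningeal genes of 0.67, with 12 and 11 positive and 0 passing. The endothelial score ran from 4.83 to 5.13 in females given doxorubicin, against 4.45 to 4.69 in females given PBS, and from 4.31 to 4.83 in males given doxorubicin, against 4.45 to 4.83 in males given PBS. The meningeal score ran from 3.5 to 4.56 in females given doxorubicin, against 3.14 to 3.75 in females given PBS, and from 2.91 to 3.66 in males given doxorubicin, against 2.92 to 3.45 in males given PBS.

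Both calls were lost with the meningeal covariate and in most of the fits that left out a library. With the meningeal score as covariate the differences were 0.49 for Notch3 and 0.38 for Pdgfrb (edgeR adjusted p = 0.174 and 0.194), and with each of the 16 libraries left out in turn Notch3 passed in 5 fits and Pdgfrb in 7, at 0.52 to 0.77 and 0.43 to 0.57. The adjusted p then ran from 0.0046 to 0.0917 for Notch3 and from 0.016 to 0.0961 for Pdgfrb. In ApoE4 cortex the difference was 0.26 (SE 0.23) for Notch3 and 0.09 (SE 0.14) for Pdgfrb (edgeR adjusted p = 0.918 and 0.956), with 0.00674% of genes called, and in hippocampus 0 of 10 members passed in either genotype, where 0.0% of genes did and DESeq2 called 0 members. Whether the sex difference itself differs between genotypes was not tested.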

How the data were processed

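STAR 2.5.2b and DESeq2 are the tools of the authors, per the submitters' processing notes; read counter, strandedness and genome build are not given in the sources used here. The deposited tables hold whole read counts per gene, 1 table per region and genotype. The authors' tables of doxorubicin against PBS hold a log2 fold change, p-values and a signal per library, which is each count over that library's size factor. The 92 ERCC spike-in rows, 0.932% to 2.44% of a library, were left out.

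The models were fitted by edgeR 4.0.16 under R 4.3.3 (TMM, filterByExpr, quasi-likelihood F-test, Benjamini-Hochberg over all tested genes, threshold 0.05). An SE is the size of the log2 change over the root of F. Doxorubicin fits used the 16 libraries of a region and genotype with sex as covariate. Region fits used 32 libraries of a genotype with the rat as replicate block, since the titles give both regions of a rat the same number. Genotype and sex fits used the 32 libraries of a region. Log2 CPM carries a prior count of 1. Permutations were two-sided and ran within groups, and over all pairings for the 9 libraries above the gap. Alternatives were RLE scaling, no filter, DESeq2 1.42.0, dropped covariates, a meningeal score (matched list, mean log2 CPM) leaving out libraries and, added after the values were seen, fits within 1 treatment. In ApoE3 region and hippocampal genotype differences the members get no p, since the libraries that chose them are part of both. Depth and 8 libraries per group limit precision, and for groups of 16 libraries no library was left out in turn.

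The members and lists were chosen with earlier results of these data known. Members are always named; of each other list, those that passed and the 4 of smallest p could be, and for likeness the 5 highest r. The fits were tested on simulated data in which all genes had the same dispersion and no library stood apart. That test does not cover the high hippocampal libraries. RefSeq (GRCr8) shows genes overlapping Pln (Cep85l), Filip1l (Cmss1) and Cavin1, and Acta2 has near-identical relatives in Actg2 and Acta1; counts of these are uncertain to that extent.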

Additional observations from a re-analysis of the deposited data

Results flagged for a closer look

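In hippocampus of ApoE4 rats given doxorubicin, the library of rat 10 lay far above the other 7 for 8 members. It had 72.7 CPM of Acta2, 102 CPM of Tagln, 141 CPM of Myh11, 57.2 CPM of Pdgfrb, 7.27 CPM of Pln, 13.2 CPM of Mustn1, 138 CPM of Cavin1 and 13.9 CPM of Filip1l. Its meningeal score of 6.34 and endothelial score of 5.45 were the highest of its group. In hippocampus of ApoE3 rats given doxorubicin, rat 47 lay above the others with 26.4 CPM of Acta2, 32.7 CPM of Tagln, 54.3 CPM of Myh11 and 1.53 CPM of Pln. Rat 3 had 156 CPM of Myh11 in ApoE4 PBS hippocampus. In cortex, rat 31 stood out with 5.07 CPM of Pln among ApoE4 doxorubicin rats, rat 26 with a low 14.1 CPM of Acta2 among ApoE4 PBS rats, and rat 56 with 5.31 CPM of Anpep among ApoE3 PBS rats. These were 16 of 80 groups of 8 libraries tested for a single distant library. Chance gives about 1 in 20 if values are normally distributed, which was not checked for these CPM, so the rate may be higher. The members of a library are also not independent.

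The effect of doxorubicin in ApoE3 cortex differed between females and males for Notch3, by 0.62 on the log2 scale, and for Pdgfrb, by 0.49, as tested above. Both calls were lost with the meningeal covariate. With each library left out in turn, Notch3 passed in 5 and Pdgfrb in 7 of 16 fits.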

How the results depend on the processing

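For doxorubicin, DESeq2 called 152 genes in ApoE3 hippocampus, 81 in ApoE3 cortex and 33 in ApoE4 cortex, where edgeR called 0. With no filter edgeR called 7 in ApoE3 and 4 in ApoE4 cortex, with the meningeal score 5 and with all 32 libraries in 1 fit 10 in ApoE3 cortex. Leaving out 1 library gave 0 to 0 calls in hippocampus of either genotype, 0 to 2 in ApoE3 cortex and 0 to 1 in ApoE4 cortex. Between the sexes DESeq2 called 50 genes in hippocampus and 315 in cortex, and the meningeal covariate left 32 in cortex. For the drug's effect by sex in ApoE3 cortex, the 380 calls became 631 with no filter, 762 with DESeq2, 82 with the covariate and 125 to 699 with 1 library left out. In ApoE4 cortex the 1 call became 16 with no filter and 19 with DESeq2, and in ApoE4 hippocampus DESeq2 called 1. Dropping the replicate block that pairs the regions of a rat gave 9603 region calls in ApoE4 and 9567 in ApoE3 rats, against 9617 and 9579 with it. All 19 correlations kept their side of the threshold with a prior count of 5. Without the expression filter, Tagln passed by genotype in cortex (0.33, edgeR adjusted p = 0.0388), and Acta2, Myh11 and Cavin1 passed by sex in ApoE3 cortex (0.81, 0.65 and 0.56). DESeq2 called Cavin1 there as well (0.56, DESeq2 adjusted p = 0.0334). Within 1 treatment, counts by genotype became 481 with doxorubicin and 423 with PBS in hippocampus, against 1259, and 2099 and 2400 in cortex, against 4547, where fewer libraries were compared. In ApoE3 rats given doxorubicin the region difference fell below 0 for Acta2 (-0.77), Tagln (-0.49), Myh11 (-0.50) and Cavin1 (-0.40). No cause was tested. Low counts of Pln limit its precision.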
